A study of Homo sapiens with 14 samples.

Results

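The imprinted locus at 14q32 was measured in human lung fibroblasts of the WI-38 strain, a diploid culture, before and during extended passaging of cells made immortal with hTERT, the reverse transcriptase of telomerase. The members are the array rows whose platform symbol begins with SNORD113 or SNORD114, or is DLK1, MEG3, RTL1, MEG8, MEG9 or DIO3. This gave 10 of 28869 rows: DLK1, MEG3, RTL1, DIO3, 2 SNORD113 rows and 4 SNORD114 rows. No row carried the symbol MEG8 or MEG9, each member row had 1 symbol, and 0 other rows held values identical to a member's. RefSeq lists 9 SNORD113 and 31 SNORD114 genes, so the 6 named rows stand for a small share of the snoRNA clusters.

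The 14 arrays carry 7 labels with 2 arrays each. The label called primary here holds cells without hTERT at passage 19. The labels A39, A50, A58, A67 and A95 hold immortalized cells, the number being the passage. B96 holds immortalized cells at passage 96 under another letter, and no source used here gives the meaning of the letters. All groups are WI-38 cells in the same serum-containing medium, split weekly at a fixed number of cells, and the replicates of a label are described as biological duplicates. No source used here says whether the immortalized cells are 1 clone, and a cultured strain is a model of lung tissue only in part. The deposited values are log2 intensities, and 1 unit is a doubling.

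Parts of the genome are imprinted, which means that the copy inherited from one parent is silent. At 14q32 the protein-coding genes DLK1, RTL1 and DIO3 are known to be read from the paternal copy. The noncoding RNAs MEG3 and MEG8, the box C/D snoRNAs of the SNORD113 and SNORD114 clusters and a large group of microRNAs are read from the maternal copy, and differentially methylated regions between DLK1 and MEG3 control which copy is used. Box C/D snoRNAs are processed from introns of a longer transcript and guide 2′-O-methylation, but most SNORD113 and SNORD114 members have no known target. Along the chromosome the members lie in the order DLK1, MEG3, RTL1, SNORD113-3, SNORD113-4, SNORD114-2, SNORD114-3, SNORD114-6, SNORD114-26 and DIO3.

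The MEG3 promoter is shown because MEG3 is the first maternally expressed gene of the locus and its row varied together with the snoRNA rows downstream. RefSeq's 300-base window on GRCh38.p14, chr14:100825858-100826157, plus strand, holds 250 bases before and 50 after the start of the gene. Capitals mark a full cyclic AMP response element, TGACGTCA, the 1 match in the window, whose first base is at position -50 from the start site.
MEG3 promoter: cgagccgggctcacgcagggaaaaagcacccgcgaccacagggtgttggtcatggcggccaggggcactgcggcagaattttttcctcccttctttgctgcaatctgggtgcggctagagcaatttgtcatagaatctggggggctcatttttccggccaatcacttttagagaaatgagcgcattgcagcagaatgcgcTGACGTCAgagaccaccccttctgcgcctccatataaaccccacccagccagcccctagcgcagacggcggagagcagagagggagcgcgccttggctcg
The motif reads the same on both strands, and 1.85% of the 35116 RefSeq promoter windows of this length hold it. The window has 19 CG dinucleotides, the sites that DNA methylation uses, against a median of 14 over all windows. RefSeq's windows for 2 further MEG3 starts hold the same element, at -60 and -74. The windows of RTL1 and DIO3 hold 0 matches, with 6 and 28 CG dinucleotides. A match is a description of the letters, and methylation was not measured here.

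The labels have limits that touch every group comparison below. TERT, which should separate the groups, read 7.07 in the array labelled primary replicate 1 and 11.70 in the array labelled primary replicate 2, while the 12 arrays labelled hTERT lay between 10.67 and 12.18. The array labelled primary replicate 2 therefore goes against its label. None of the 14 arrays (0) had its label mate as the closest array by Pearson correlation over all rows. The 5 mutual closest pairs joined neighbouring labels, at correlations of 0.986 to 0.993 against 0.945 to 0.983 for label mates. Each pair joined replicate 2 of one label to replicate 1 of the next. Whether the labels are displaced by 1 array was not tested, but under such a displacement every label mean, SD and contrast given here would mix arrays of 2 groups. For A39 minus primary, the F test and the correlations between members, values without the array labelled primary replicate 2 are given as well. The table has no detection calls, so whether the dimmer rows (RTL1, SNORD114-6, DIO3, DLK1) respond fully is unknown, and levels of different rows are not set against each other.

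**Figure D1:**
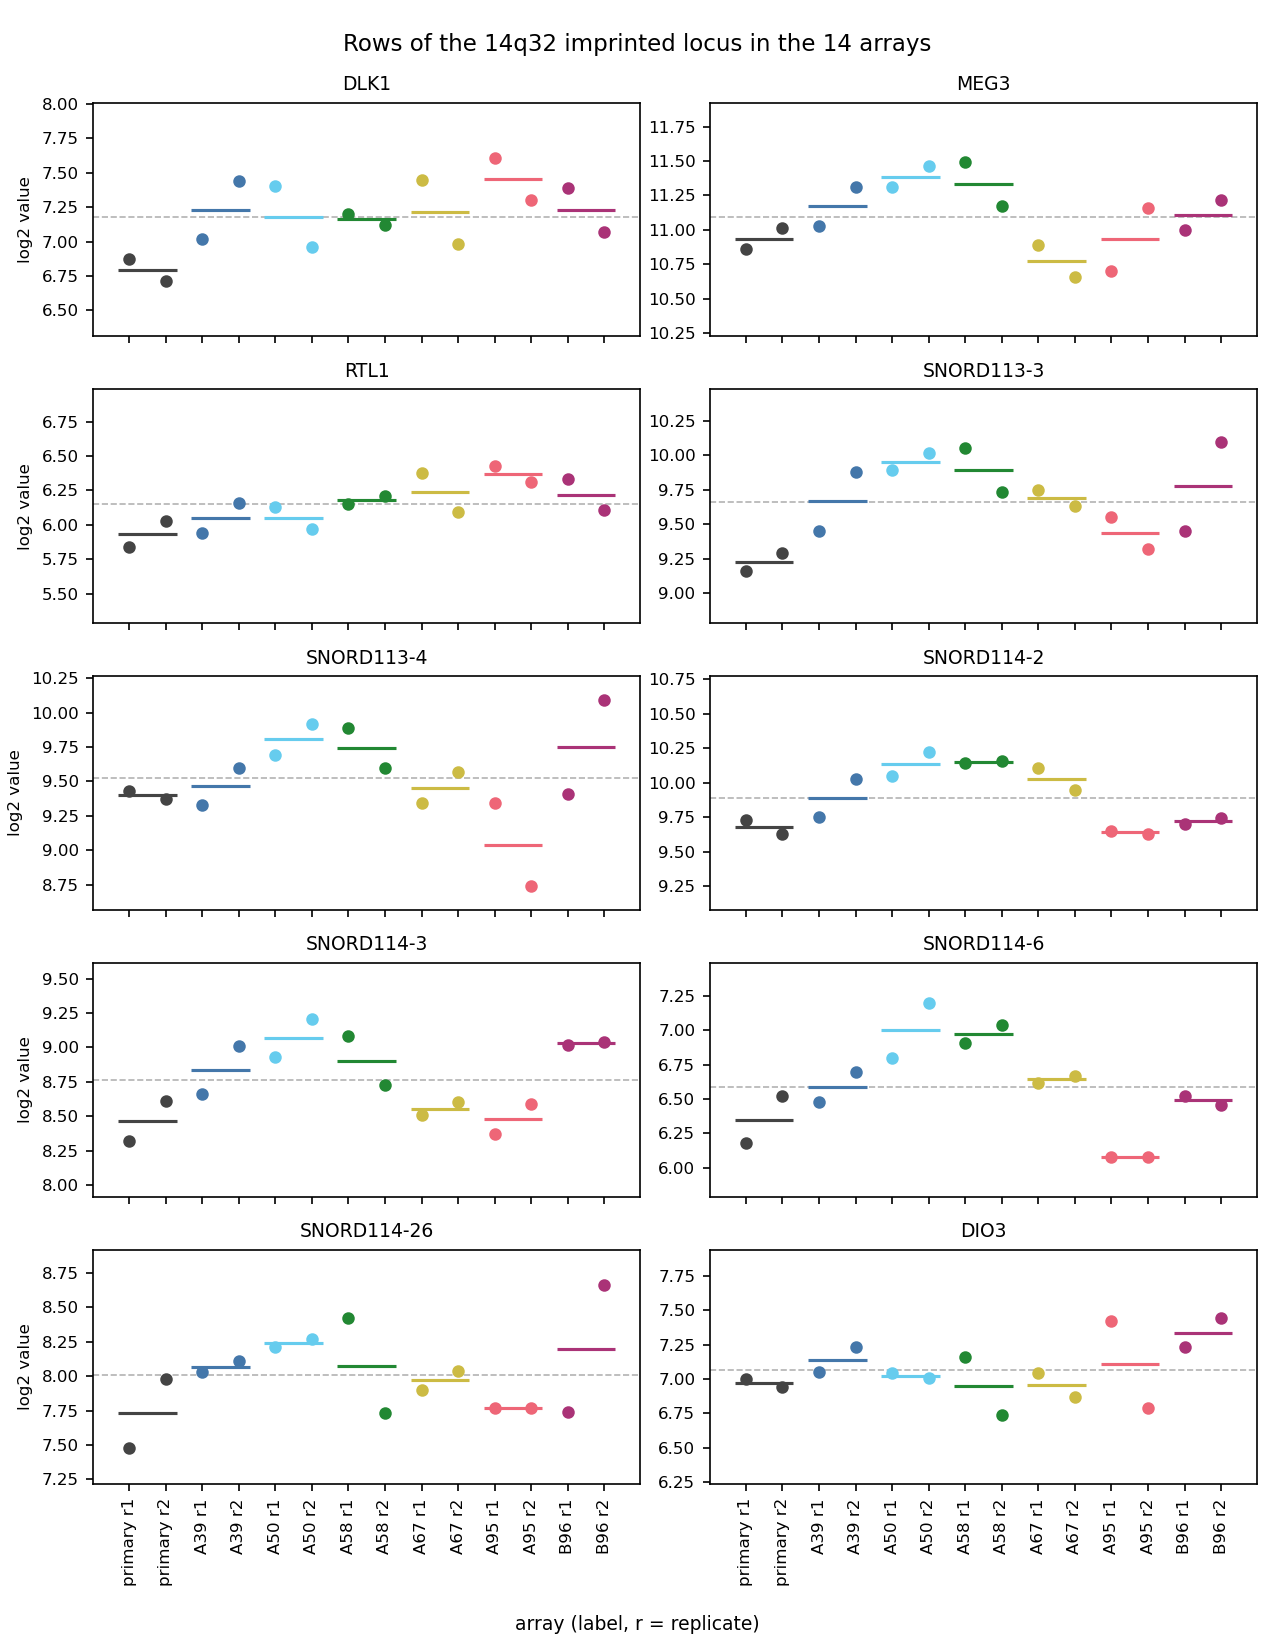
Log2 value (vertical axis) of the 10 locus rows in each of the 14 arrays (horizontal axis, passage increasing from left to right, r = replicate). Points are arrays, short bars are the means of a label (n = 2) and the dashed line is the row's mean over all arrays; every panel spans 1.7 log2 units. MEG3 and the 6 snoRNA rows lie above their means in both A50 arrays and in A58 replicate 1, while SNORD114-26 is low in A58 replicate 2 (7.73) and B96 replicate 2 is the highest array for SNORD113-3, SNORD113-4 and SNORD114-26. DLK1 and RTL1 have their lowest label mean in the primary arrays.

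MEG3, a long noncoding RNA with growth-restraining activity in several cell types, varied by 0.83 log2 over the 14 arrays, a 1.78-fold span. It read 10.86 and 11.01 in the primary arrays, 11.03 and 11.31 in A39, 11.31 and 11.46 in A50, 11.49 and 11.17 in A58, 10.89 and 10.66 in A67, 10.70 and 11.16 in A95. The B96 arrays read 11 and 11.22. The highest values came from A58 replicate 1 and A50 replicate 2, which are mutual closest arrays, and the lowest from A67 replicate 2 and A95 replicate 1. By label the mean was highest in A50, at 11.385 ± 0.106 (SD, n = 2), followed by A58, A39, B96, primary and A95, and lowest in A67 at 10.775 ± 0.163. Of the gaps between neighbours in this order, 0 exceeded the pooled spread within labels of 0.196. Its span was larger than that of 47.4% of all rows in the table.

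SNORD113-3 and SNORD113-4 are the first of the snoRNA rows along the chromosome. SNORD113-3 read 9.16 and 9.29 in the primary arrays, 9.45 and 9.88 in A39, 9.89 and 10.02 in A50, 10.05 and 9.73 in A58, 9.75 and 9.63 in A67, 9.55 and 9.32 in A95. The B96 arrays read 9.45 and 10.10. The primary arrays were the lowest pair, and the highest array was B96 replicate 2. SNORD113-4 had the widest range of the locus, 1.35 log2 or 2.55-fold, wider than that of 81.1% of all rows. It read 9.43 and 9.37 in the primary arrays, 9.33 and 9.60 in A39, 9.69 and 9.92 in A50, 9.89 and 9.60 in A58, 9.34 and 9.57 in A67, 9.34 and 8.74 in A95. The B96 arrays read 9.41 and 10.09. Its lowest and highest arrays, A95 replicate 2 and B96 replicate 2, lay 0.60 and 0.68 from their label mates, so the late labels held the whole of its range.

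Of the SNORD114 rows, SNORD114-6 had the highest F value over the labels (6.29) and the widest range of label means (0.92). It read 6.18 and 6.52 in the primary arrays, 6.48 and 6.70 in A39, 6.80 and 7.20 in A50, 6.91 and 7.04 in A58, 6.62 and 6.67 in A67, 6.08 and 6.08 in A95. The B96 arrays read 6.52 and 6.46. The A50 and A58 arrays were the 4 highest and the A95 arrays the 2 lowest. In the order of label means, A50 and A58, then A67, A39, B96 and primary, with A95 last at 6.08, 2 of the gaps between neighbours exceeded the pooled spread within labels of 0.157. SNORD114-2 followed a like course within a narrower range of 0.59 log2, and 3 of its gaps between neighbouring label means exceeded its pooled spread of 0.102. It lay between 9.63 and 9.73 in the primary and A95 arrays, at 9.75 and 10.03 in A39, between 10.05 and 10.22 in A50 and A58, at 10.11 and 9.95 in A67, and at 9.70 and 9.74 in B96. Its correlation with SNORD114-6 over the 14 arrays was 0.88.

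SNORD114-3 read 8.32 and 8.61 in the primary arrays, 8.66 and 9.01 in A39, 8.93 and 9.21 in A50, 9.08 and 8.73 in A58, 8.51 and 8.60 in A67, 8.37 and 8.59 in A95. The B96 arrays read 9.02 and 9.04. Both B96 arrays lay at the level of A50, above both A95 arrays. The platform lists a second, longer transcript beside the snoRNA for this row, so it may read host RNA. SNORD114-26 read between 7.48 in primary replicate 1 and 8.66 in B96 replicate 2. Its label mates differed by 0.69 in A58 (7.73 in replicate 2 and 8.42 in replicate 1) and by 0.92 in B96 (8.66 in replicate 2 and 7.74 in replicate 1), and 0 neighbouring gaps between its label means exceeded the pooled spread of 0.338. Rows of these repeated families can share probes or sequence, so each is uncertain as a measure of its own gene. Neither the array nor the labels tell the mature snoRNA and its host transcript apart.

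Array by array, the snoRNA rows tended to lie on the same side of their means. In A39 replicate 2, A50 replicates 1 and 2 and A58 replicate 1 all 6 rows lay above their own means, with median deviations of 0.12, 0.18, 0.38 and 0.34 log2. In both primary arrays and both A95 arrays 0 of 6 did, with median deviations of -0.43 and -0.15 in the primary arrays and -0.24 and -0.30 in A95. The B96 arrays differed, at -0.15 in replicate 1 and 0.36 in replicate 2. Over all rows of the table the median deviation per array lay between -0.068 and 0.079. Among the 10 A arrays the highest value of a snoRNA row came from A50 replicate 2 in 4 rows and from A58 replicate 1 in 2 rows, and the lowest from an A95 array in 5 of 6 rows. In bulk RNA, fewer cells that express a gene and less RNA per cell cannot be told apart.

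The paternally expressed coding genes did not follow the course of the snoRNA rows, and DIO3 differed from DLK1 and RTL1. DLK1, a transmembrane relative of the Notch ligands that restrains differentiation, read 6.87 and 6.71 in the primary arrays, 7.02 and 7.44 in A39, 7.40 and 6.96 in A50, 7.20 and 7.12 in A58, 7.45 and 6.98 in A67, 7.61 and 7.30 in A95. The B96 arrays read 7.39 and 7.07. The primary arrays were the 2 lowest of the 14. RTL1, a retrotransposon-derived gene needed for the placenta in mice, ranged from 5.84 in primary replicate 1 to 6.43 in A95 replicate 1, and its label means ran from 5.935 ± 0.134 (SD, n = 2) in the primary arrays to 6.37 ± 0.085 in A95. DIO3, the deiodinase that inactivates thyroid hormone, ranged from 6.74 in A58 replicate 2 to 7.44 in B96 replicate 2. The A95 arrays spanned nearly all of the DIO3 range, at 7.42 in replicate 1 and 6.79 in replicate 2.

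**Figure D2:**
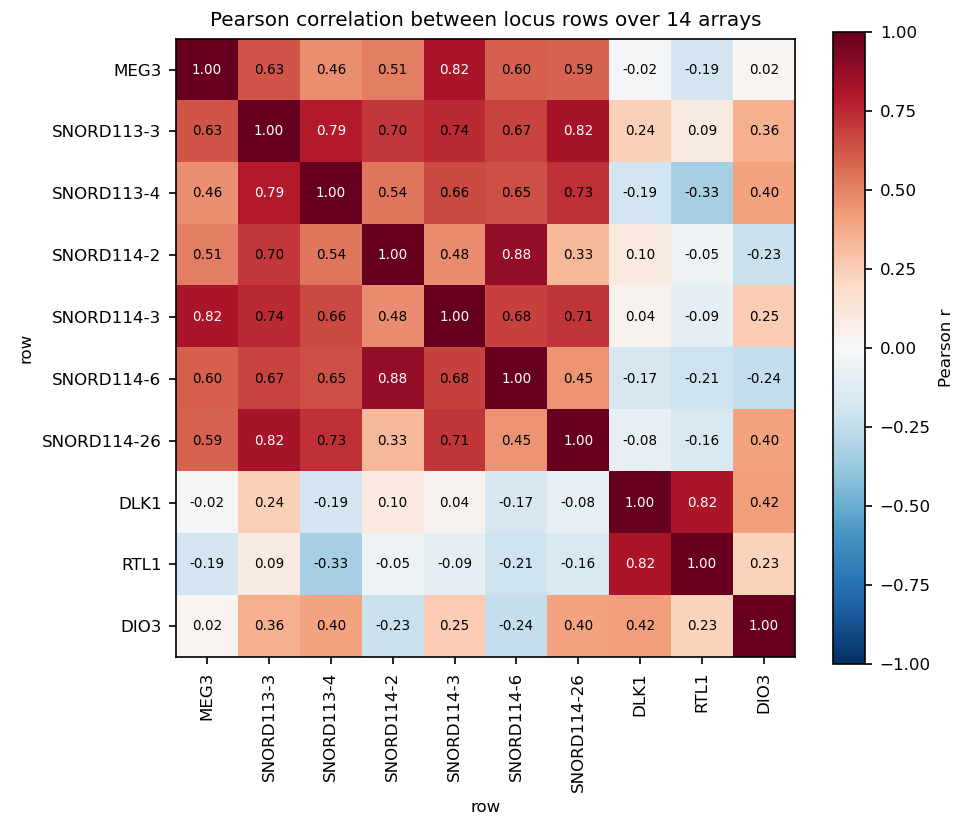
Pearson correlation between each pair of the 10 locus rows over the 14 arrays (color, -1 to 1, with the value in each cell). MEG3 and the 6 snoRNA rows form 1 block of positive values, DLK1 and RTL1 correlate at 0.82, and the cells between DLK1, RTL1 or DIO3 and that block lie between -0.33 and 0.40, the highest of them for DIO3.

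Over the 14 arrays the maternally expressed rows correlated with each other more than with the paternally expressed ones. All 15 pairs of snoRNA rows correlated positively, with Pearson's r from 0.33 to 0.88 (median 0.68) and Spearman's rho from 0.39 to 0.87. MEG3 correlated with the 6 snoRNA rows at r from 0.46 to 0.82 (rho 0.53 to 0.81), most closely with SNORD114-3. The 21 pairs of DLK1, RTL1 or DIO3 with MEG3 or a snoRNA row ranged from -0.33 to 0.40 (median -0.050), with 9 of 21 positive. The highest of them, DIO3 with SNORD113-4 at 0.40, lay above the lowest snoRNA pair. Over all pairs of rows in the table the median r was 0.023. DLK1 and RTL1 correlated at 0.82 (rho 0.86). DIO3 correlated less with these 2, at 0.42 with DLK1 and 0.23 with RTL1. These are descriptions over arrays of one culture that share its history, and they carry no test.

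The correlations were recomputed in other ways. Without the array labelled primary replicate 2 the medians were 0.68 for the snoRNA pairs, 0.60 for MEG3 with the snoRNA rows and -0.11 for the 21 pairs, and DLK1 with RTL1 stood at 0.85. Leaving out the 2 arrays farthest from the median of the first row of each pair gave medians of 0.71 for the snoRNA pairs and 0.63 for MEG3 with the snoRNA rows. After centring each array on its median they were 0.70 and 0.59, and DLK1 with RTL1 stood at 0.71. DIO3 then stood at 0.19 with DLK1 and at -0.04 with RTL1. DLK1, DIO3 and RTL1 also varied with the array median itself, at r of 0.68, 0.56 and 0.50, against -0.38 to 0.29 for MEG3 and the snoRNA rows, and the part of this in the link between DLK1 and RTL1 was not tested beyond the centring. MEG3 was also not most like its own locus. Among the 19309 other rows with 1 symbol, 167 correlated with MEG3 more closely than SNORD114-3 did. Between 1040 and 2518 did so for the other 5 snoRNA rows.

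The genes outside the locus with the pattern most like that of MEG3, by Pearson's r over 14 arrays, lay on other chromosomes. They were DNAAF9 (r = 0.94), a dynein assembly factor; EXT1 (0.94), a heparan sulfate polymerase; DUSP3 (0.93), a phosphatase; VAT1 (0.93), a vesicle membrane protein; and EHD2 (0.92), an ATPase of caveolae. DNAAF9, EXT1, DUSP3 and VAT1 were highest in A50 replicate 2. EHD2 was highest in A39 replicate 2.

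The contrast of A39 with primary cells asks what differed at the earliest immortalized passage. The groups differ both in hTERT and in passage, 19 against 39, and the 2 cannot be told apart. All 10 member rows had higher means in A39, with a median difference of 0.24 log2, against 0.030 over all rows. DLK1 averaged 7.23 ± 0.30 in A39 and 6.79 ± 0.11 in primary arrays (SD, n = 2 each), a difference of 0.44 ± 0.24 (SE). SNORD113-3 averaged 9.67 ± 0.30 in A39 and 9.225 ± 0.092 in primary arrays, also a difference of 0.44 ± 0.24. In 7 of 10 rows both A39 arrays lay above both primary arrays, which was the case for 15% of all rows, and in 0 rows both lay below them, against 12.8% of all rows. Limma (adjusted p under 0.05, Benjamini-Hochberg over all rows) called 0 of 10 members and 0% of all rows, and at an unadjusted p under 0.05 it found 0 members and 1.2% of all rows. The smallest adjusted p of a member in limma was 1.00. The member median was 0.11 without A39 replicate 2 and 0.36 without A39 replicate 1. Without A39 replicate 2 the DLK1 difference was 0.23, the SNORD113-3 difference 0.225 and the SNORD113-4 difference -0.07. Without the array labelled primary replicate 2 the member median was 0.335, the DLK1 difference 0.36 and the SNORD113-3 difference 0.505. Both A39 arrays then lay above the remaining primary array in 9 of 10 rows, against 35% of all rows. Without primary replicate 1, whose TERT value fits its label, the member median was 0.18.

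**Figure D3:**
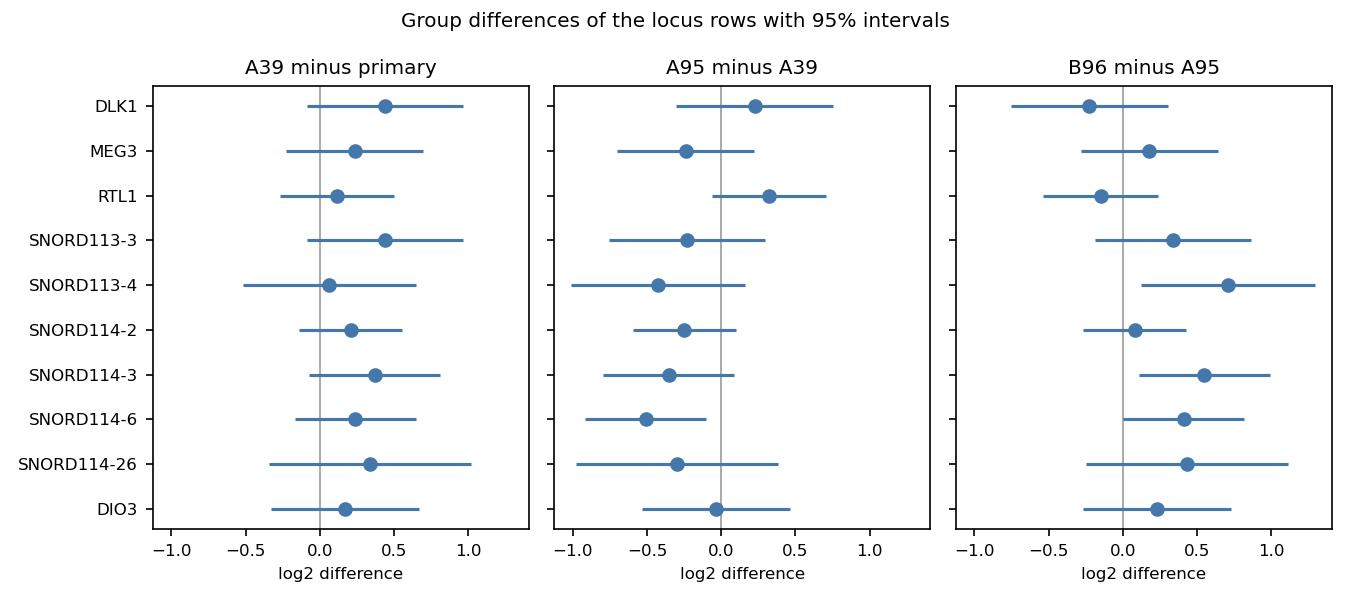
Log2 difference between label means (horizontal axis) of the 10 locus rows (vertical axis) in 3 comparisons, with 95% intervals from limma as bars. All 10 points lie above 0 in A39 minus primary, the 6 snoRNA rows lie under 0 in A95 minus A39 and above 0 in B96 minus A95, and 1 interval in the second panel and 2 in the third leave out 0.

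A95 minus A39 compares the ends of the A culture, and it shares the A39 arrays with the contrast before it. The 6 snoRNA rows all had lower means in A95, with a median difference of -0.33 log2, while the median over all rows was 0.070. SNORD114-6 averaged 6.08 ± 0.00 in A95 and 6.59 ± 0.16 in A39, a difference of -0.51 ± 0.19 (SE), with an adjusted p of 0.528 in limma. SNORD113-4 differed by -0.43 ± 0.26 and SNORD114-3 by -0.36 ± 0.20. MEG3 averaged 10.93 ± 0.33 in A95 and 11.17 ± 0.20 in A39, a difference of -0.24 ± 0.21 whose 95% interval ran from -0.70 to 0.22. RTL1 averaged 6.37 ± 0.085 in A95 and 6.05 ± 0.16 in A39, a difference of 0.32 ± 0.17, and DLK1 differed by 0.23 ± 0.24. Without A39 replicate 1 the DLK1 difference was 0.015 and that of RTL1 0.21. Without A39 replicate 2, DLK1 differed by 0.435 and SNORD114-3 by -0.18.

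None of the members was called in this contrast (0 of 10, and 0% of all rows). At an unadjusted p under 0.05 there was 1 member, SNORD114-6, and 9.21% of all rows. Both A95 arrays lay below both A39 arrays in 4 of 10 rows, against 15.4% of all rows, and above them in 1, RTL1, against 22.7%. Without A95 replicate 2 the SNORD113-4 difference was -0.125, and without A95 replicate 1 it was -0.725. MEG3 differed by -0.01 without A95 replicate 1 and by -0.47 without A95 replicate 2. Fibroblast markers differed in the same direction: 9 of 10 had lower means in A95, with a median of -0.43, and the median deviation of the list was -0.25 and -0.31 in the A95 arrays and 0.24 and 0.16 in the A39 arrays. Their part in the snoRNA values was not tested.

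The contrast of B96 with A95 sets the 2 latest labels side by side and shares the A95 arrays with the contrast before it, and the letter and the 1 passage between them cannot be told apart. The 6 snoRNA rows had higher means in B96, with a median difference of 0.42 log2, against -0.005 over all rows. Without B96 replicate 2 the median of the 6 was 0.215, with SNORD113-3 at 0.015 and SNORD114-26 at -0.03, and the median of the 10 members was 0.065 in place of 0.285. SNORD113-4 averaged 9.75 ± 0.48 in B96 and 9.04 ± 0.42 in A95, a difference of 0.71 ± 0.26 (SE). SNORD114-3 averaged 9.03 ± 0.01 in B96 and 8.48 ± 0.16 in A95, a difference of 0.55 ± 0.20, and SNORD114-6 differed by 0.41 ± 0.19. SNORD114-2 differed by 0.08 ± 0.16, with a 95% interval from -0.27 to 0.43. MEG3 differed by 0.18 ± 0.21, DIO3 by 0.23 ± 0.22, RTL1 by -0.15 ± 0.17 and DLK1 by -0.23 ± 0.24.

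Limma called 0 of 10 members and 0% of all rows for B96 minus A95, and the smallest adjusted p of a member was 1.00. At an unadjusted p under 0.05 there were 2 members, SNORD113-4 and SNORD114-3, and 2.28% of all rows. Both B96 arrays lay above both A95 arrays in 4 of 10 rows, against 9.83% of all rows, and below them in 0, against 9.84%. SNORD113-4 differed by 0.37 without B96 replicate 2 and by 1.05 without B96 replicate 1. MEG3 differed by -0.05 without A95 replicate 1 and by 0.07 without B96 replicate 2. SNORD114-3 stayed between 0.44 and 0.66 with any of the 4 arrays left out. A95 replicate 2 and B96 replicate 1 are mutual closest arrays that lie on opposite sides of this contrast, and they differed by 0.67 in SNORD113-4, more than in any other member. Of the fibroblast markers, 8 of 10 had higher means in B96, with a median difference of 0.17, and their part in the snoRNA values was not tested.

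Passage was also taken as a number over the 10 A arrays. The 6 snoRNA rows had negative slopes, from -0.064 to -0.13 log2 per 10 passages, and MEG3 had -0.073 ± 0.042 (SE). The slope was -0.13 ± 0.044 for SNORD114-6 and 0.062 ± 0.024 for RTL1, the steepest value upward. The adjusted p in limma was 0.176 for SNORD114-6 and 0.217 for RTL1. Limma called 0 of 10 members and 0.281% of all rows. At an unadjusted p under 0.05 there were 4 members (SNORD114-6, SNORD114-3 and SNORD113-4 downward and RTL1 upward), or 4 of 10, against 18.7% of all rows. The means of the 6 snoRNA rows were highest at A50 or A58 and not at either end of the A culture. On passages 39 to 67 alone the median slope of the members was -0.0048, and those of SNORD114-2 and SNORD114-6 were 0.052 and 0.024.

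An F test for any difference among the 7 labels called 0 of 10 members and 0% of all rows. At an unadjusted p under 0.05 it found 3 members, SNORD114-6, SNORD114-3 and SNORD114-2, with 4.62% of all rows. Without the array labelled primary replicate 2 it called 0 and found 2 at an unadjusted p under 0.05, SNORD114-6 and SNORD114-3, with 4.4% of all rows. With all 14 arrays the adjusted p in limma was 0.943 for each of the 3.

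Between the 2 arrays of a label no member differed by 1 log2 or more (0 of 10 in each label), where the shares of all rows were 2.94% in primary, 2.74% in A39, 2.65% in A50, 3.26% in A58, 1.58% in A67, 9.52% in A95 and 9.58% in B96. At 0.5 log2 or more there were 3 members in B96 (33.1% of all rows) and 2 in A95 (32.1%). There was 1 member each in primary (16.3%) and A58 (17.4%), and 0 in A39 (17.3%), A50 (13.2%) and A67 (13.8%). The 10 members were all higher in replicate 2 of A39 than in replicate 1, by 0.08 to 0.43 log2. In A50 all 6 snoRNA rows were higher in replicate 2 than in replicate 1, by 0.06 to 0.40, while DLK1 was 0.44 lower there. Against this, the mutual closest arrays A39 replicate 2 and A50 replicate 1 differed by at most 0.19 in any member, and by at most 0.10 in any snoRNA row. This was the closest such pair in the members. The largest member difference was 0.29 to 0.67 in the other mutual pairs and 0.43 to 0.92 in label mates. In A58 replicate 2 and A67 replicate 1 the median absolute member difference was 0.24, within the 0.155 to 0.305 of label mates.

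Of 56 listed symbols of 14q32 microRNA genes, 16 had a row, and these 16 lie between the starts of MEG3 and DIO3, in the maternal cluster. Their median deviation was lowest in A39 replicate 1 (-0.27 log2) and highest in A50 replicate 2 (0.44), where 15 of 16 lay above their own means. In primary replicate 2 and A39 replicate 1, 0 of 16 did. In the A95 arrays the list stood at -0.22 in replicate 1 and 0.27 in replicate 2, whereas the snoRNA rows were low in both. All 16 correlated positively with MEG3 over the 14 arrays, 11 of them above 0.5. Of the 19309 other rows with 1 symbol, 10516 correlated with MEG3 above 0.019 and 2013 above 0.509. Limma called 0 of 16 in each of the 3 contrasts and the trend. The median differences were 0.15 for A39 minus primary (14 of 16 positive; 0.195 without the array labelled primary replicate 2), 0.09 for A95 minus A39 (10 of 16 positive) and 0.11 for B96 minus A95 (10 of 16 positive).

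The 4 microRNA genes with the widest range were MIR154, MIR376C, MIR323A and MIR134. MIR154 ranged from 7.30 in primary replicate 1 to 8.85 in B96 replicate 2 and correlated with MEG3 at 0.79. MIR323A ranged from 6.03 in primary replicate 1 to 7.33 in A50 replicate 2. MIR376C ran from 3.84 in A50 replicate 1 to 5.17 in A95 replicate 2, with 5.12 in A50 replicate 2, and MIR134 from 7.07 in A95 replicate 1 to 8.24 in B96 replicate 1. MIR127 and MIR136, which lie antisense to RTL1, correlated with MEG3 at 0.67 and 0.42. Of the rows named here and below, MIR376C, MIR136, MIR410 and MIR494 were dim, with means of 4.46, 5.36, 5.75 and 6.06. These means lie under the 30th percentile of all row means (6.45), so whether these rows respond fully is unknown.

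Mature sequences are shown for MIR154, the widest range, and for those of the 16 genes that share a seed, since such microRNAs can pair with the same target sites. All 16 genes were found in RefSeq (GRCh38.p14), and their 32 mature sequences hold 29 distinct seeds. Capitals mark the seed, bases 2 to 8.
hsa-miR-154-5p: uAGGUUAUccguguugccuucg
hsa-miR-154-3p: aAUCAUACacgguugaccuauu
hsa-miR-487a-3p: aAUCAUACagggacauccaguu
hsa-miR-494-5p: aGGUUGUCcguguugucuucucu
hsa-miR-410-5p: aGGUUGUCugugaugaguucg
hsa-miR-323b-5p: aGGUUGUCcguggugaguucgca
The 3p products of MIR154 and MIR487A share 1 seed, and the 5p products of MIR494, MIR410 and MIR323B share another. MIR487A, like MIR154, had a high value in A50 replicate 2, 7.49 against 6.93 in A50 replicate 1, and was lowest in A95 replicate 1 at 6.43. MIR494 was highest in A50 replicate 2 (6.57), MIR410 in A58 replicate 1 (6.14) and MIR323B in A95 replicate 2 (8.08). The rows read gene regions, and how much of a value is mature microRNA was not measured.

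**Figure D4:**
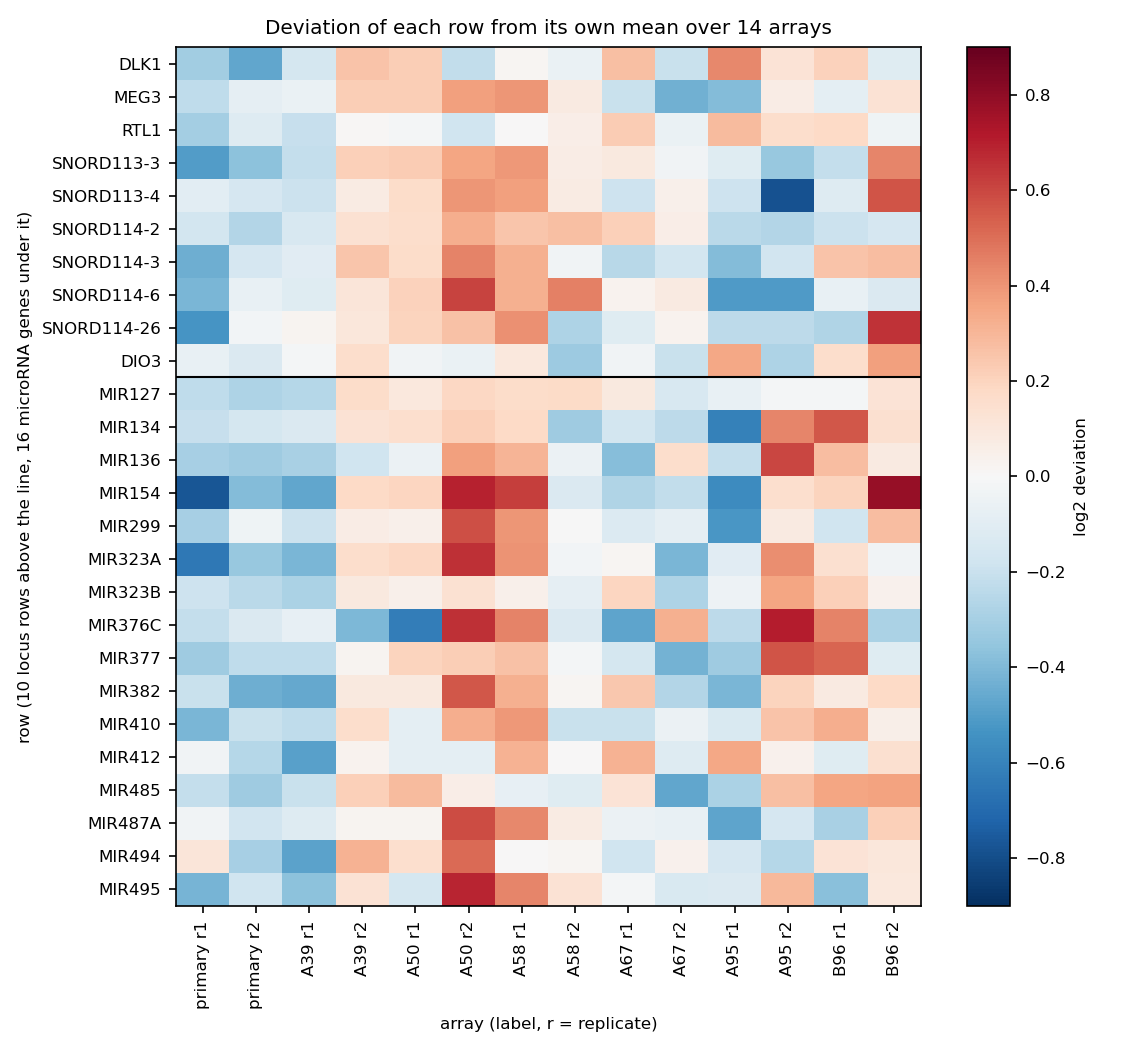
Deviation of each row from its own mean over 14 arrays in log2 (color, -0.9 to 0.9), with the 10 locus rows above the line and the 16 microRNA genes under it (vertical axis), by array (horizontal axis, r = replicate). The columns of A50 replicate 2 and A58 replicate 1 are mostly red in MEG3, the snoRNA rows and the microRNA genes, and in A95 replicate 2 the snoRNA rows are blue while most microRNA genes are red.

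Genes on 14q32 outside the imprinted domain were compared as neighbours, and all 18 listed were measured. Their median deviation per array correlated with that of the snoRNA rows at 0.08, against 0.59 for the microRNA genes. With MEG3 it correlated at 0.39, against 0.77 for the microRNA genes. The neighbours' median deviation ranged from -0.19 in A67 replicate 2 to 0.22 in B96 replicate 2. Their median difference was 0.005 for A39 minus primary (9 of 18 positive; -0.11 without the array labelled primary replicate 2), -0.04 for A95 minus A39 (7 of 18 positive) and 0.10 for B96 minus A95 (15 of 18 positive), with 0 called in each. WARS1, the tryptophanyl-tRNA synthetase, had the widest range, from 9.96 in A95 replicate 1 to 11.60 in A39 replicate 2.

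The 15q11 cluster, the other large imprinted box C/D array, gave 40 SNORD115 and SNORD116 rows. Their median deviation ran from -0.63 in A95 replicate 1 to 0.40 in A50 replicate 1 and correlated with that of the 14q32 snoRNA rows at 0.39 and with MEG3 at 0.72. The label means of the 2 families of this cluster differed in opposite directions. For A95 minus A39, 19 of 20 SNORD116 rows had lower means in A95, with a median of -1.27 log2 and values down to -2.53. In SNORD115, 19 of 20 rows had higher means in A95, with a median of 0.43. However, the SNORD115 median deviation was -0.14 in A95 replicate 1 and 0.74 in A95 replicate 2, against -0.034 and -0.21 in A39. All 20 SNORD115 rows were dim, with means from 3.09 to 5.54, under the 30th percentile of all row means (6.45). Most SNORD116 rows were dim by this measure too, with means from 4.26 (SNORD116-16) up to 8.92 (SNORD116-15) in that family. Whether the dim rows of either family respond fully is unknown. At an unadjusted p under 0.05 in limma there were 17 of 20 SNORD116 rows, all lower in A95, against 9.21% of all rows. There were 3 of 20 SNORD115 rows, all higher, which is nearer to that share. SNORD116 thus had the same sign as the 6 snoRNA rows of 14q32 in this contrast, and again in B96 minus A95. There 19 of 20 SNORD116 rows were higher in B96, with a median of 0.86, against 4 of 20 for SNORD115 with a median of -0.31. The B96 arrays differed, since the SNORD116 median deviation was -0.72 in replicate 1 and 0.52 in replicate 2. In A95 it was -0.85 and -0.81, near that of B96 replicate 1. Over the 14 arrays the median deviation of SNORD116 correlated with that of the 14q32 snoRNA rows at 0.54, and that of SNORD115 at -0.14. The families were separated after their values were seen, and rows of such repeated genes can share sequence. SNORD116-15 read 7.23 in B96 replicate 1 and 10.66 in B96 replicate 2, a far wider gap within 1 label than any 14q32 snoRNA row had. Limma called 1 of the 40 rows in the trend, against 0.281% of all rows, and 0 in the 3 contrasts (0% of all rows in each). The called row was SNORD116-21, at -0.46 ± 0.076 (SE) per 10 passages with an adjusted p of 0.048 in limma.

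Genes for proteins that assemble or maintain these RNAs and imprints were examined as well, by their RNA, and no protein was measured. Of the genes for box C/D snoRNP proteins, 8 of 10 were measured. Of the 19309 other rows with 1 symbol, 10516 correlated with MEG3 above 0.019, whereas 7 of these 8 genes correlated negatively. The other, ZNHIT6, had the widest range of the list and correlated with MEG3 at 0.32. FBL, the methyltransferase of the particle, ranged from 10.25 in A50 replicate 2 to 11.19 in A67 replicate 1 and correlated with MEG3 at -0.84. DNMT1, which copies DNA methylation at replication, was lowest in A58 replicate 1 (9.51) and highest in A67 replicate 2 (10.92), with a correlation of -0.86 with MEG3, and UHRF1, its partner, from 8.99 in A50 replicate 2 to 10.92 in A95 replicate 2. All 11 genes of the methylation and imprint list were measured. Their correlations with MEG3 were of both signs, from -0.86 to 0.35. Of the 4 with the widest range, UHRF1 and DNMT1 correlated with MEG3 at -0.78 and -0.86, and TET2 and ZFP57 at 0.16 and 0.30. Limma called 0 of 8 and 0 of 11 in the 3 contrasts and the trend.

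The labelled cell type was checked against its markers, and 0 members or markers were listed at 0 in any array. All 10 fibroblast markers were measured, with COL1A1 between 12.59 and 13.36, VIM between 12.55 and 13.09 and DCN between 12.27 and 13.53 over the 14 arrays. Others varied more widely. S100A4 ranged from 6.26 in B96 replicate 1 to 11.37 in A58 replicate 2, COL3A1 from 10 in A58 replicate 2 to 12.25 in A39 replicate 1, THY1 from 10.47 in A67 replicate 1 to 12.03 in A39 replicate 2, and PDGFRB from 9.80 in B96 replicate 1 to 11.12 in B96 replicate 2. In A58 replicate 2, both A67 arrays and A95 replicate 1, COL3A1 read at most 10.64 and THY1 at most 10.69, their 4 lowest arrays. The median deviations of the epithelial, endothelial, blood, neuron and neuroendocrine, and smooth muscle markers spanned 0.63, 0.46, 0.44, 0.42 and 0.74 log2 over the arrays, with 8 of 8, 5 of 5, 5 of 6, 4 of 5 and 4 of 4 measured. Single markers of other cell types varied more. Of the epithelial markers, the keratin KRT19 ranged from 6.71 in B96 replicate 1 to 9.11 in primary replicate 1, KRT18 from 9.77 in A50 replicate 2 to 11.95 in B96 replicate 2 and KRT8 from 9.20 to 10.25, while EPCAM lay between 5.31 and 6. Of the blood markers, PTPRC lay between 5.20 and 5.90. The hemoglobin gene HBB ranged from 5.70 in primary replicate 1 to 8.61 in A58 replicate 1, with 8.59 in A50 replicate 2, the arrays in which MEG3 was also highest. HBB correlated with MEG3 at 0.65 and with the snoRNA median at 0.61, and its part in those values was not tested. PECAM1, an endothelial adhesion protein, was highest in A95 replicate 2 at 8.44, and TEK, an endothelial receptor, was lowest there at 6.77. Correlations of these 5 lists with the snoRNA median lay between -0.29 and 0.18, against 0.49 for the fibroblast markers, and limma called 0 of their genes in the 3 contrasts and the trend.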

How the data were processed

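Total RNA was measured on Affymetrix Human Gene 1.0 ST arrays, per the labels' protocols. The values are log2 intensities that the authors deposited as a single table, 1 row per transcript cluster. No source used here gives their background correction, normalization or probe summary, so they were used as deposited, with no filter. Rows were named through the platform annotation, with symbols updated by gene ID (19310 rows with 1 symbol, 1752 with several, 7807 with none). Each row was fitted with limma 3.58.1 in R 4.3.3 on all 14 arrays with 7 group means, 3 contrasts and an F test, and on the 10 A arrays with passage as a number. Benjamini-Hochberg adjustment ran across the whole table of 28869 rows, with a threshold of 0.05. The script was tested on simulated data. All members were described. Named genes of a list were among its 4 of widest range, or were cell type markers, and the 5 rows most like MEG3 were taken by Pearson correlation. Further microRNA genes were named for a shared seed or for lying antisense to RTL1, after their values were seen. The members and the lists were chosen with earlier results of these data known. Having 2 arrays per label limits the precision. Alternatives covered normalization, filtering, array weights, blocks and left-out arrays.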

Additional observations from a re-analysis of the deposited data

How the results depend on the processing

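Members called stayed at 0 in the 3 contrasts under 11 alternatives each and in 18 of 19 for the trend. With array weights 2 members were called in the trend, SNORD114-3 (-0.118 per 10 passages, limma adjusted p 0.0462) and SNORD114-6 (-0.144, adjusted p 0.0484), and DIO3 turned to 0.055. The cause was not tested. Rows called in the trend, 81 as reported, were 159 after quantile normalization, 429 after centring, 271 without dim rows (RTL1 among them), 132 with an intensity trend and robust prior, 2171 with array weights, 489 on ranks of passage, 0 when limited to passages 39 to 67, and 729 with passage as a random block. On passages 39 to 67, with fewer arrays, the member median slope was -0.0048 and the slopes of DLK1 (-0.0081), SNORD113-3 (0.0079), SNORD114-2 (0.052) and SNORD114-6 (0.024) changed sign. With the compared groups alone, 2 rows were called in A95 minus A39. Leaving out 1 array at a time gave 0 to 6 rows called in A39 minus primary (6 without primary replicate 2), 0 to 4 in A95 minus A39 (4 without A95 replicate 1), 0 to 3 in B96 minus A95 (3 without B96 replicate 2) and 0 to 571 in the trend (571 without A95 replicate 1). It also changed signs: SNORD113-4 in A39 minus primary ran from -0.07 to 0.20, DIO3 in A95 minus A39 from -0.35 to 0.28, and the DIO3 slope from -0.060 to 0.038. In B96 minus A95, MEG3 ran from -0.05 to 0.41, DIO3 from -0.085 to 0.545 and SNORD114-26 from -0.03 to 0.89. The member medians then ran from 0.11 to 0.36 in A39 minus primary, -0.385 to -0.105 in A95 minus A39 and 0.065 to 0.42 in B96 minus A95. Medians of the snoRNA rows and lists, the F test and the correlations without single arrays were added after seeing the data. At 0.5 log2 in place of 1, 7 member differences between label mates passed. With replicate number as a block, limma called 0 rows in each contrast and 74 in the trend, and the member medians stayed at 0.24, -0.245, 0.285 and -0.067. Deviations of same-numbered arrays from their label means correlated at -0.529 to 0.196, above 0.1 in 4 of 21 pairs of labels. Displaced labels would mix groups in those means, so these values cannot decide whether the numbers pair the arrays. The median slope on ranks of passage is on another scale and was not compared. The dim rows lack detection calls, which limits how far their differences can be read.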
